A study of Homo sapiens with 4 samples.

Results

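The 10 genes described here encode TXNRD1 and other enzymes and carriers of the thioredoxin and glutathione systems that the transcription factor NRF2 is known to drive: TXNRD1, TXN, PRDX1, PRDX6, GCLM, GCLC, SLC7A11, NQO1, SRXN1 and HMOX1. Their peaks were the positions, each counted once, that the deposited lists assign to the NCBI Gene ID of one of these genes. There were 9 such peaks among 9107 for HNRNPC and 49 among 63507 for PABPC4, or 58 of 72614 in all. Both proteins were mapped in MDA-MB-231, an established human breast cancer cell line of mesenchymal, triple-negative type, by cross-linking and immunoprecipitation (CLIP), in which proteins are fixed to RNA by ultraviolet light, 1 protein is recovered with an antibody, and its attached RNA fragments are sequenced as tags. All 4 samples were cross-linked at 400 mJ per square centimetre and 254 nm, and the labels give no other treatment. The 2 HNRNPC samples (antibody against HNRNPC, a largely nuclear RNA-binding protein) were, per the labels, irCLIP libraries. The 2 PABPC4 samples (antibody against PABPC4, a poly(A)-binding protein that shuttles between nucleus and cytoplasm) were, per the labels, PAPERCLIP libraries, a form that marks mRNA 3′ ends. Each protein had 1 list of peaks from its pooled samples. No value below therefore has a spread between replicates, no difference was tested, and the 95% intervals cover counting error only.

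NRF2 is held low by KEAP1 and, when released by oxidants or electrophiles, switches on genes that share an antioxidant response element. TXNRD1 uses NADPH to reduce thioredoxin (TXN), which in turn reduces peroxiredoxins (PRDX1), while SLC7A11 imports cystine for the glutathione made by glutamate-cysteine ligase (catalytic subunit GCLC, modifier subunit GCLM). Most mammalian mRNAs are cleaved a short way downstream of a poly(A) signal, AAUAAA or a variant of it, and many genes have several such sites in 1 3′ UTR, the part of the mRNA after the coding sequence.

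The sequences that carry the results come first. Below are 11 of the 17 3′ UTR stretches of 30 nt that hold the poly(A) signal of a PABPC4 peak, read 5′ to 3′ on the strand of the gene from GRCh38 (hg38), with AATAAA and ATTAAA in capitals. They are shown because they lie at the ends of the PABPC4 peaks, and the other 6, of further TXN, GCLM and GCLC peaks with 19 to 60 tags, are left out for length. For each, the number of tags is the peak height, the pooled unique tags at the summit.
TXNRD1, 274 tags, chr12:104350254-104350283, plus strand: gaaacATTAAAATTAAAaggcattaataat
TXN, 1964 tags, chr9:110244024-110244053, minus strand: gcgtgacAATAAAacattaatgctaacact
PRDX1, 614 tags, chr1:45511047-45511076, minus strand: tagtttgtATTAAActtgaactgagacctt
PRDX6 first site, 434 tags, chr1:173487983-173488012, plus strand: ccaatggcttATTAAAtgaaaatggcacta
PRDX6 last site, 410 tags, chr1:173488775-173488804, plus strand: gggaacaaAATAAAatcctttgttaaaact
NQO1 first site, 438 tags, chr16:69710844-69710873, minus strand: ccacaaggAATAAAtgagagggaatcgact
NQO1 last site, 179 tags, chr16:69709406-69709435, minus strand: ATTAAATAAATAAAattcatttctacagac
GCLM last site, 93 tags, chr1:93885206-93885235, minus strand: gatttgaaAATAAAttaataatttaaaaac
GCLC last site, 35 tags, chr6:53497352-53497381, minus strand: tatgaggaAATAAAagaatggaattagctt
SLC7A11 last site, 21 tags, chr4:138164101-138164130, minus strand: ggaaatttaAATAAAcatttgatagtttac
SRXN1 last site, 13 tags, chr20:646627-646656, minus strand: tatcattccaaAATAAAagtttatttaatt

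The second set is the 30 nt just downstream of 3 further 3′ UTR peaks, with runs of 4 or more A and any signal in capitals. SLC7A11 and GCLM are shown because their tallest peaks stopped before a genomic run of A, and HMOX1 because the signal lay past its peak.
SLC7A11 after its 247-tag peak, chr4:138167138-138167167, minus strand: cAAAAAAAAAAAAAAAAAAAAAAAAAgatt
GCLM after its 227-tag peak, chr1:93886987-93887016, minus strand: ctcAAAAAAAAAAAAAAAAgAAAAAttatg
HMOX1 after its 11-tag peak, chr22:35394178-35394207, plus strand: tgaaatAATAAAcaacattgtctgatagta

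PABPC4 had a 3′ UTR peak in 10 of the 10 genes, against 49.2% of 20037 protein-coding genes. In 9 of them it had 2 or more, against 53.7% of the 9859 genes with any. Leaving out peaks before an A-rich stretch left 8 of the 10 genes with a 3′ UTR peak. Keeping only peaks at or above the list's median height left 7. The 49.2% is over all protein-coding genes, whether or not the cell line expresses them. Of the 11865 protein-coding genes with any PABPC4 peak, 9859 had one in a 3′ UTR. Of the 49 PABPC4 peaks of these genes, 28 had their centre in a 3′ UTR (57.1%, 95% Wilson interval 43.3 to 70.0%) and 21 in an intron, while 3′ UTRs held 31.6% of the whole PABPC4 list. Peaks of a gene come from the same RNA and are not independent, so these counts describe the genes and are not a test.

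The tallest 3′ UTR peak differed widely among the genes. Its median was 260.5 tags over the 10 genes and 74 tags over the 9859 genes. TXN stood highest with 1964 tags (95% exact Poisson interval 1878 to 2053), more than in 99.4% of genes. PRDX1, the cytosolic peroxidase that thioredoxin reduces, had 614 tags (566 to 665), more than in 96.6%. NQO1, a quinone reductase, and PRDX6, a peroxidase with a single catalytic cysteine that depends on glutathione, followed with 438 (398 to 481) and 434 (394 to 477) tags, and their intervals overlapped. TXNRD1 with 274 tags (243 to 308), SLC7A11 with 247 (217 to 280) and GCLM with 227 (198 to 259) formed the next group, again with overlapping intervals, each above 85.4% of genes or more. GCLC with 35 tags (24.4 to 48.7), SRXN1, which repairs over-oxidised peroxiredoxins, with 29 (19.4 to 41.7) and HMOX1, which breaks down haem, with 11 (5.49 to 19.7) lay below the gene median. The set thus spread from the 5.94 to the 99.4 percentile of genes by this measure. Heights rise with the amount of mRNA as well as with recovery by the antibody, and these cannot be told apart, since no input library was analysed here. GENCODE names 7 pseudogenes of TXN and 1 of PRDX1, and how tags matching both copies were treated is not given in the sources used here.

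**Figure D1:**
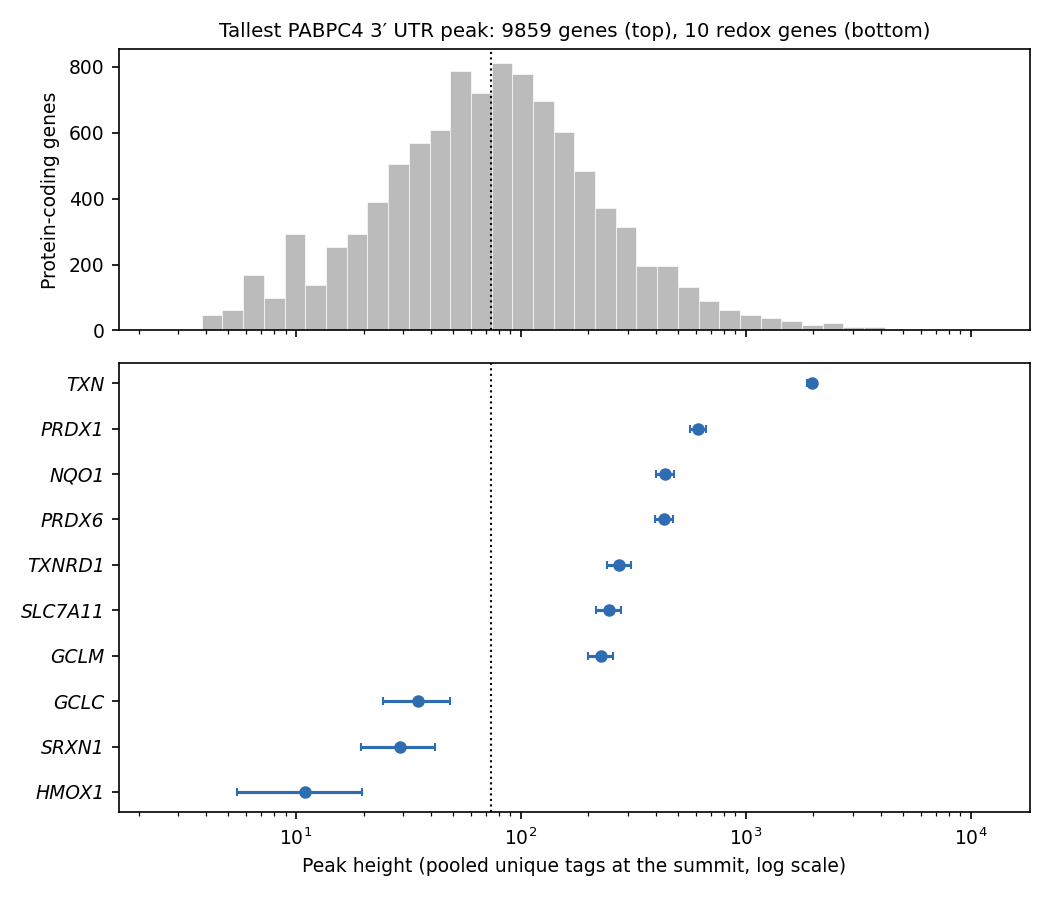
Tallest PABPC4 3′ UTR peak in pooled unique tags (log axis), as a histogram over 9859 protein-coding genes (top) and as points for the 10 redox genes with 95% exact Poisson intervals (bottom); the dotted line is the gene median of 74 tags. The points of 7 genes lie above the line, from GCLM at 227 to TXN at 1964, and those of GCLC, SRXN1 and HMOX1 lie below it.

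Positions in the 3′ UTR are given as the distance from the last coding base to the peak's 3′ end. In the thioredoxin branch, almost all of the TXNRD1 3′ UTR height lay at the far end. Its 274-tag peak ended at 1865 nt, exactly on an annotated 3′ end, and held 94.2% of the height (90.8 to 96.3%). The other peak, at 1517 nt, had 17 tags, no signal and an A-rich stretch downstream. A stretch was called A-rich where the next 50 nt held at least 6 consecutive A, or at least 7 A among 10 bases. The TXN peak of 1964 tags ended at 146 nt, 5 nt past an annotated end, and held 97.0% of the height (96.2 to 97.7%). A second TXN peak of 60 tags followed at 192 nt. Both TXN peaks lay well short of the end of the longest annotated 3′ UTR at 350 nt, where no peak was listed. The TXN peak of 1964 tags also counted as lying before an A-rich stretch, but its longest run of A was 4 and the stretch belonged to the AATAAA of the second site.

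The peroxiredoxins differed from each other. PRDX1 had 614 tags at 285 nt, 4 nt past its annotated end (76.6%, 73.5 to 79.4%), and 188 tags at 173 nt in a peak with no signal that began in the coding sequence. PRDX6 had 2 sites of like height, with overlapping intervals. Its first site, at 152 nt, had 434 tags (51.4%, 48.1 to 54.8%) and its last, at 949 nt, had 410 (48.6%). Each PRDX6 peak ended within 6 nt of an annotated 3′ end and held its own signal. SRXN1 had 29 tags at 2048 nt and 13 at 2090 nt, both before an A-rich stretch. Those SRXN1 peaks also overlapped the 3′ UTR of another annotated gene on the same strand, so which transcript gave the tags cannot be told apart.

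Among the glutathione genes, the tallest peaks of SLC7A11 and GCLM held no signal. SLC7A11 had its 247-tag peak at 4791 nt, 3071 nt before the annotated end, where it made up 78.4% of the 3′ UTR height (73.5 to 82.6%). That SLC7A11 peak lay before 25 A in a row, and resembled 7SL RNA, the ancestor of Alu repeats, in the sense direction. Further along SLC7A11 there were 47 tags at 7765 nt, 97 nt before the annotated end, and 21 tags at 7858 nt, 4 nt before it. GCLM had 8 peaks in its 3′ UTR. Its 227-tag peak at 1976 nt (45.95%, 41.6 to 50.4%) lay before 16 A in a row and resembled 7SL RNA, but ended 17 nt past an annotated 3′ end. The last GCLM site, at 3790 nt, had 93 tags (18.8%), held a signal and ended 4 nt from the annotated end. That site also counted as lying before an A-rich stretch, with a longest run of 3 A. The other 6 GCLM peaks had 13 to 68 tags. GCLC had 4 low peaks of 35, 21, 35 and 35 tags at 264, 616, 1234 and 1409 nt, so no site led. The GCLC peak at 1409 nt counted as lying before an A-rich stretch, with a longest run of 3 A. Where a 3′ UTR peak lay before an A-rich stretch, the part of priming at genomic A in its height was not tested.

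NQO1 had its larger peak near the coding sequence. The peak of 438 tags at 136 nt held 71.0% of the height (67.3 to 74.4%), carried an AATAAA, and lay 61 nt from the closest annotated end. The peak of 179 tags at 1575 nt (29.0%) lay 3 nt from the end of the main transcript. HMOX1 had 1 peak, of 11 tags and only 4 nt wide, at 582 nt. At that width the peak could hold no signal, and the 40 nt before its end held none either. An AATAAA followed within the 30 nt printed above. The peak also counted as lying before an A-rich stretch, with a longest run of 3 A. The HMOX1 peak ended 30 nt before an annotated 3′ end.

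**Figure D2:**
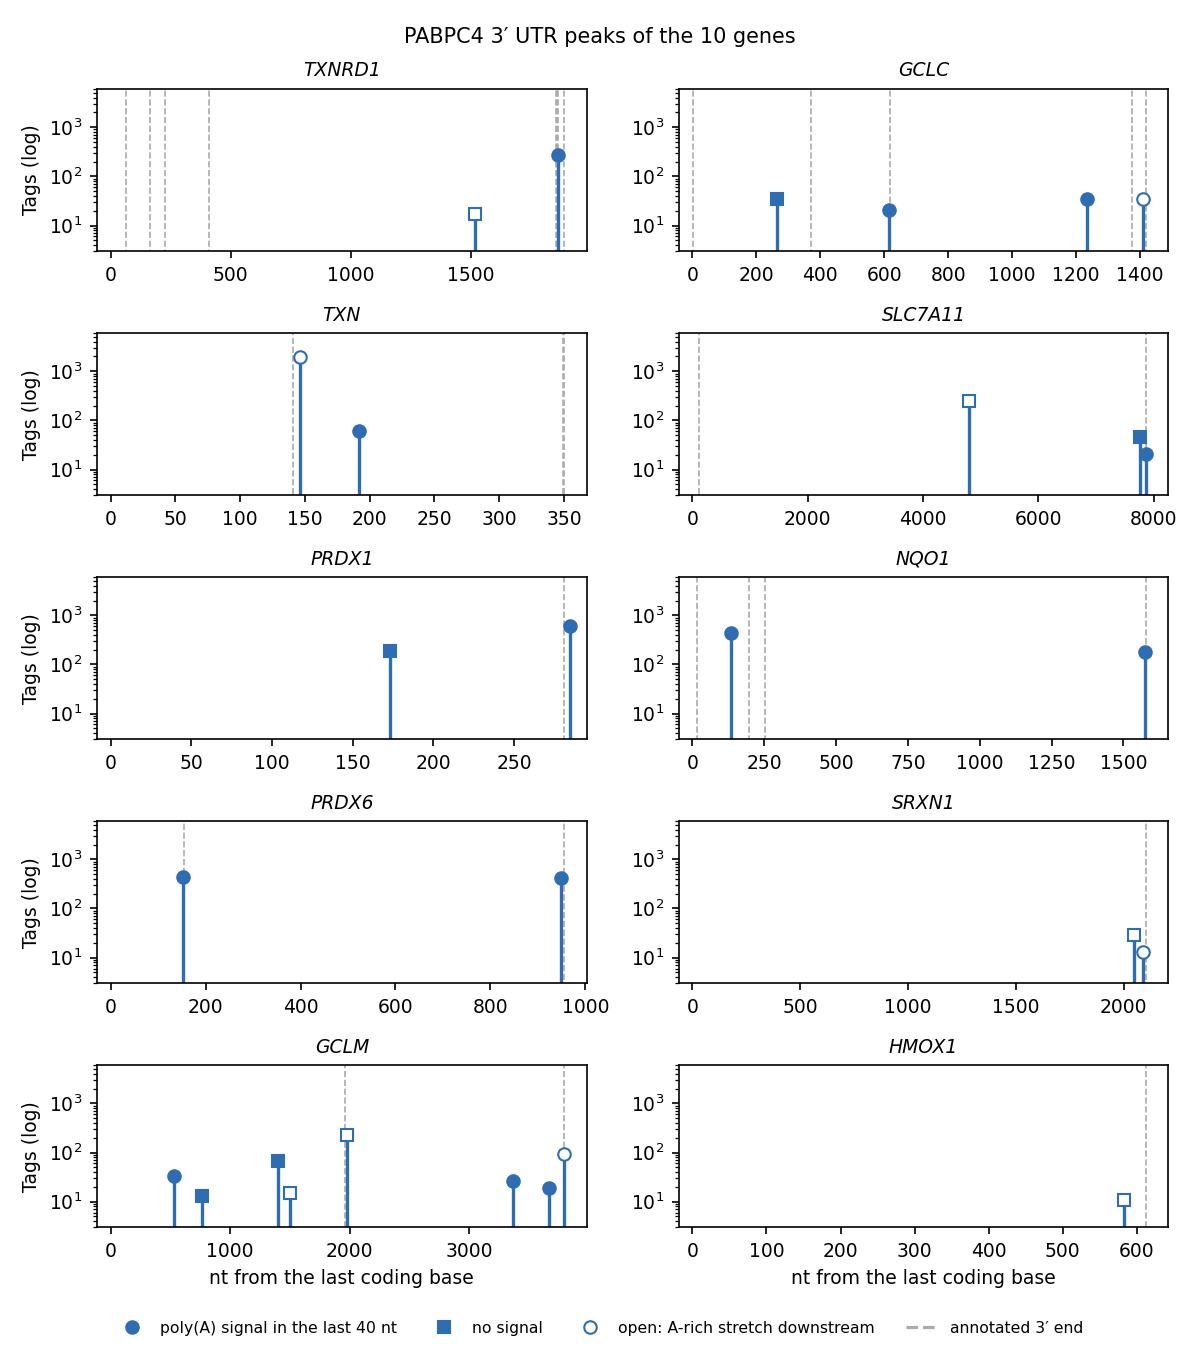
PABPC4 3′ UTR peaks of the 10 genes, by distance in nt from the last coding base to the peak's 3′ end (horizontal) and height in tags on a log axis (vertical); circles have a poly(A) signal in the last 40 nt, squares have none, open symbols lie before an A-rich stretch and dashed lines are annotated 3′ ends. PRDX6 shows 2 sites of like height (434 and 410 tags), NQO1 a taller first site (438 against 179), and SLC7A11 an open square of 247 tags far from its annotated end.

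Of the 28 3′ UTR peaks, 17 held a signal in their last 40 nt (60.7%, 42.4 to 76.4%), against 44.9% of all PABPC4 3′ UTR peaks. The signal began 9 to 33 nt before the peak's end, with a median of 22 nt. Within 50 nt of the 3′ end of some annotated transcript lay 14 of the 28 (50%, 32.6 to 67.4%), against 53.6% of the list, and 13 of these were ends of the gene itself. An A-rich stretch followed 10 of the 28 (35.7%, 20.7 to 54.2%), against 33.6%. The list's value lay inside the interval of the 10 genes for each of these measures. Over genes with 2 or more 3′ UTR peaks, the tallest held a median of 71.0% of the height in 9 of the 10 redox genes and 60.8% in 5294 genes.

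The 21 intron peaks of PABPC4 had 10 to 86 tags, with a median of 40 against 35 over the list's intron peaks. An A-rich stretch followed 12 of the 21 (57.1%, 36.6 to 75.5%), against 71.2% of all intron peaks. Likeness to 7SL RNA in sense was seen in 11 (52.4%, 32.4 to 71.7%), against 53.1%. When BC200 RNA, an Alu-derived RNA, was added to the search, 12 of 21 (57.1%) matched, against 60.4%. By these measures the intron peaks were near the list. A poly(A) signal was held by 4 of the 21 (19.05%, 7.67 to 40%), against 5.96%, and 3 of those 4 were all the intron peaks of SLC7A11, with 40, 84 and 30 tags in introns 6, 4 and 2 of 11. The remaining one was a GCLM peak of 34 tags, which resembled 7SL RNA in sense. The 84-tag SLC7A11 peak lay before an A-rich stretch, with a longest run of 5 A.

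**Figure D3:**
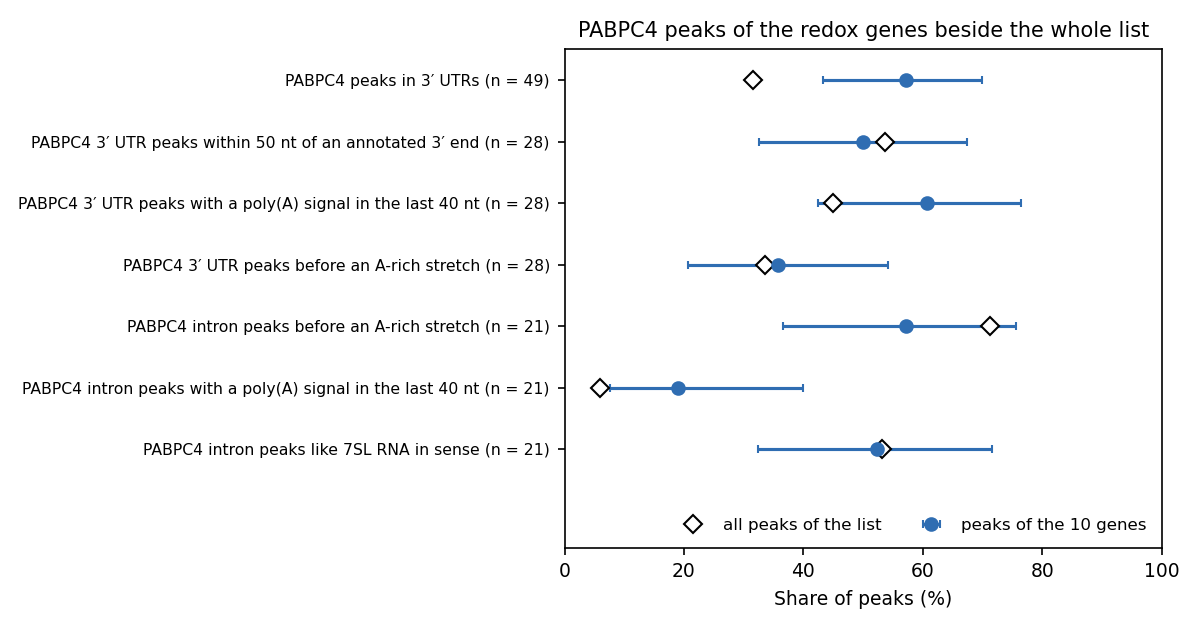
Shares of PABPC4 peaks with each property (horizontal, in %), for the peaks of the 10 redox genes (points with 95% Wilson intervals, n at left) and for the whole list (diamonds). The share in 3′ UTRs was 57.1% against 31.6%, while the diamond lies inside the interval for 3′ ends, signals and A-rich stretches of 3′ UTR peaks. For intron peaks with a poly(A) signal the share was 19.05%, from 4 peaks, and the diamond at 5.96% lies below the interval.

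TXNRD1 carried 8 of these intron peaks, which made up 48.0% of its summed PABPC4 height, the largest share among the 10 genes, whose median was 12.7%. Over the 9859 genes the median was 21.2% (quartiles 0.0 and 58.3%). The tallest TXNRD1 intron peaks had 86, 59 and 52 tags. Those of 86 and 59 tags resembled 7SL RNA in sense and had no A-rich stretch downstream. The 52-tag peak lay before an A-rich stretch. The part of priming at genomic A in the height of intron peaks was not tested. GCLC followed with 41.1% and SLC7A11 with 32.8%, while TXN, SRXN1 and HMOX1 had no intron peak. NQO1 had an intron peak of 68 tags at chr16:69708607-69708653, downstream of the 3′ end of the main transcript and in an intron of a longer one. It was also listed under SNORD13H, a small nucleolar RNA annotated at chr16:69708572-69708675, so its tags cannot be given to NQO1 alone. A run of 11 A followed it. Another NQO1 intron peak, of 19 tags, also lay downstream of the main transcript, ending 3467 nt from the last coding base. That peak resembled 7SL RNA in sense.

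HNRNPC had peaks in 3 of the 10 genes, TXNRD1, TXN and SLC7A11. That is 30.0% (10.8 to 60.3%), against 19% of all protein-coding genes and 31.4% of the 11865 protein-coding genes with a PABPC4 peak. None of the 10 had an HNRNPC peak in a 3′ UTR, and 0 of 10 allows a share of up to 30.0% when the limit is set at 3 counts, against 2.28% of protein-coding genes. Thus 8 of the 9 peaks lay in introns, and the ninth had its centre in another gene's coding sequence.

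The HNRNPC peaks are shown for the tallest peak of TXN and the SLC7A11 peak that lay next to a PABPC4 peak. Each is printed with the 50 nt upstream of it. Runs of 4 or more T are in capitals because HNRNPC is known to bind runs of U. GTGTCA, also in capitals, is not a run of U. It was found at the 3′ end of 24% of the list's HNRNPC intron peaks, and its source was not tested. The last line is the PABPC4 peak beside the SLC7A11 one, with 50 nt downstream and its AATAAA in capitals.
TXN, 35 tags, chr9:110253870-110254021, minus strand: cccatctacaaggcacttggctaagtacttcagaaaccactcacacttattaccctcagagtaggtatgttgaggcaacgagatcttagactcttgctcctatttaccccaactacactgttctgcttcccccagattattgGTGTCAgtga
SLC7A11, 12 tags, chr4:138196241-138196434, minus strand: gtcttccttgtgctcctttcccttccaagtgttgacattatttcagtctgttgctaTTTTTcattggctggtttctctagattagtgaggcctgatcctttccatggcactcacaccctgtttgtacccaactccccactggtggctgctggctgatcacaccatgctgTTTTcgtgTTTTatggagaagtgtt
SLC7A11 PABPC4 peak, 40 tags, chr4:138196000-138196097, minus strand: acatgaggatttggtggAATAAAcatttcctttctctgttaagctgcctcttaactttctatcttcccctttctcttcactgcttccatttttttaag

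TXNRD1 had 4 HNRNPC peaks of 11, 10, 10 and 8 tags, all within 11683 nt of intron 4 of 16. Its tallest exceeded that of 44.1% of the 3814 genes with an HNRNPC peak, for which the median was 12 tags. The 8-tag peak, chr12:104303860-104304033, with an authors' p-value of 0.00979, had its centre in the coding sequence of EID3, a gene without annotated introns on the same strand at chr12:104303739-104305205, so EID3 mRNA and TXNRD1 pre-mRNA cannot be told apart as its source. TXN had 2 peaks, of 35 and 16 tags, in intron 1 of 4. The 35 tags (24.4 to 48.7) were above the tallest of 87.6% of genes and formed the tallest HNRNPC peak of the set. SLC7A11 had 3 peaks of 12, 8 and 17 tags, all in intron 6 of 11, and its tallest exceeded that of 67.1% of genes. The heights of TXNRD1 and SLC7A11 are few tags with overlapping intervals, for example 5.49 to 19.7 for 11 tags and 9.90 to 27.2 for 17.

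A run of UUUUU in the peak or the 50 nt upstream was found in 4 of the 8 intron peaks (50%, 21.5 to 78.5%), against 39.9% of the list's intron peaks. Of those 4, 2 were in TXNRD1, with longest runs of 10 and 5 U, and 2 in SLC7A11, with 5 and 11 U. Neither TXN peak had UUUUU, and their longest run was 3. Likeness to 7SL RNA in antisense, the orientation in which the A-rich parts of Alu repeats are read as runs of U, was found in 3 of 8 (37.5%, 13.7 to 69.4%), against 34.6%, and with BC200 RNA added in 4 of 8, against 39.1%. These were the TXNRD1 intron peaks and the 17-tag SLC7A11 peak. GUGUCA in the last 20 nt was found in 2 of 8 (25%, 7.15 to 59.1%), the 35-tag TXN peak and a 10-tag TXNRD1 peak, against 24% of the list. All of these shares had the list's value inside their interval. Whether GUGUCA marks binding by HNRNPC was not tested.

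A PABPC4 peak within 500 nt downstream on the same strand followed 1 of the 8 intron peaks (12.5%, 2.24 to 47.1%), against 3.32% of the list's. It was the 12-tag SLC7A11 peak, 143 nt before the 40-tag PABPC4 peak printed above. That PABPC4 peak had an AATAAA, no A-rich stretch downstream and no likeness to 7SL RNA. The other HNRNPC peaks lay 1298 nt or more before the next PABPC4 peak.

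**Figure D4:**
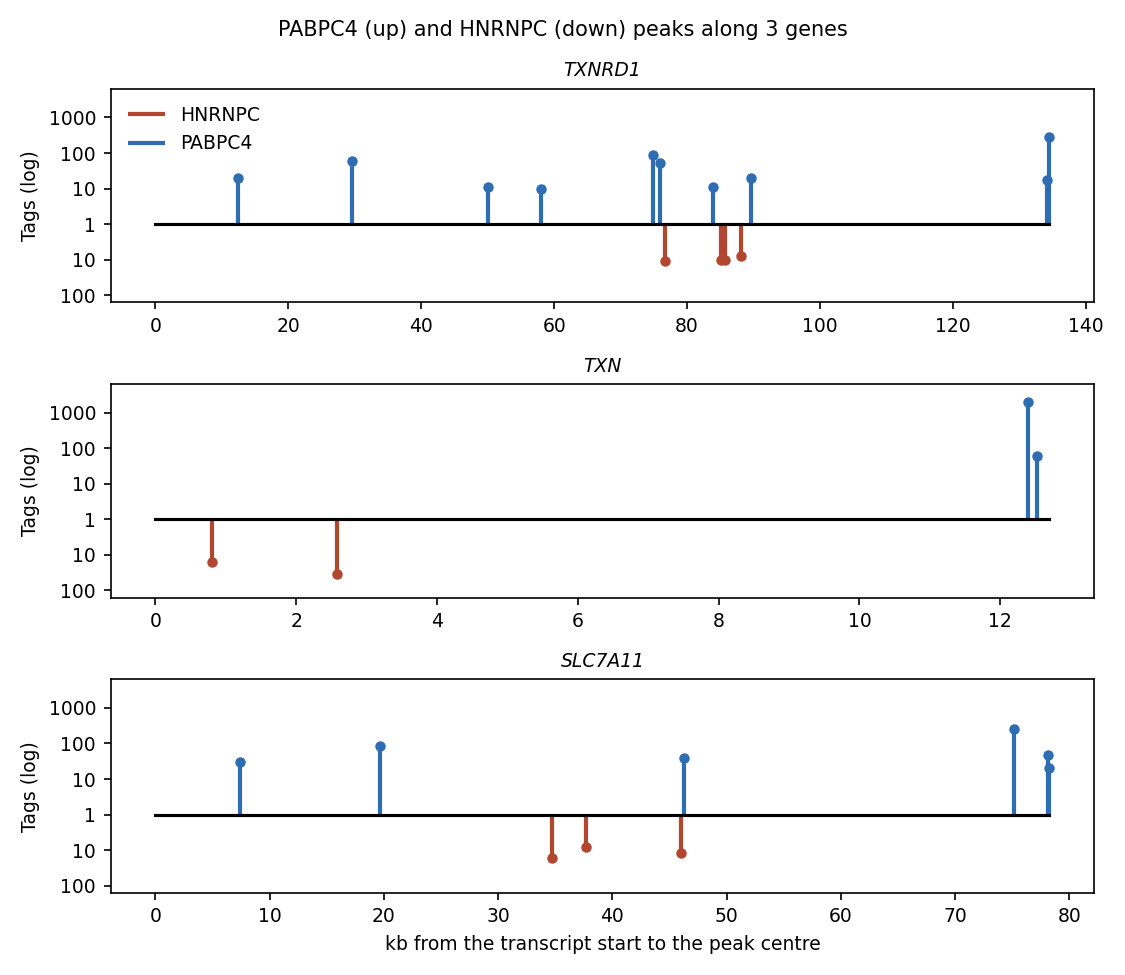
HNRNPC peaks (down) and PABPC4 peaks (up) along the 3 redox genes with both, by distance in kb from the transcript start to the peak centre, with heights in tags on a log axis from 1 tag. The HNRNPC peaks (8 to 35 tags) lie inside the genes, and the tallest PABPC4 peaks (274, 1964 and 247 tags) lie in the 3′ UTRs, that of SLC7A11 3071 nt before its annotated end.

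Among 46 other genes of the NRF2 and thioredoxin pathway, HNRNPC had 19 peaks in 14 of them (30.4%), against 19% of protein-coding genes and 31.4% of those with a PABPC4 peak, which 42 of the 46 had. NFE2L2, which encodes NRF2, had 1 HNRNPC peak of 9 tags outside its 3′ UTR. TXNIP, which binds and inhibits thioredoxin, was the only one of the 46 with an HNRNPC peak in a 3′ UTR, of 9 tags. PABPC4 had a 3′ UTR peak in 38 of 46 (82.6%), against 49.2% of genes and 9859 of the 11865 genes with any PABPC4 peak. The tallest were in FTL, the ferritin light chain, with 4357 tags, TKT, transketolase of the pentose phosphate pathway, with 897, and SQSTM1, an autophagy receptor that binds KEAP1, with 852. RNA levels were not analysed here, so these shares could not be set against them.

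As a check of the cell line, PABPC4 had a 3′ UTR peak in 5 of 5 markers expressed in MDA-MB-231 (VIM, CD44, AXL, CAV1 and ZEB1), with VIM at 10197 tags. It had one in 2 of 6 luminal or epithelial markers, CDH1 with 56 tags and GATA3 with 108, and none in ESR1, PGR, FOXA1 or TFF1. The median peak of the whole lists was 11 tags high for HNRNPC and 38 for PABPC4.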

How the data were processed

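For HNRNPC, the authors collapsed reads by molecular identifiers, trimmed them with UMI-tools and cutadapt, aligned them with BWA 0.7.17 to hg38 and used the CLIP Tool Kit to call peaks. How the PABPC4 tags were processed is not given separately in the sources used here. The deposited signal is the peak height in unique tags, pooled over replicates, which the authors did not scale to depth. Tags of both replicates were pooled, so neither replicates nor library depth could be compared. The labels name irCLIP for HNRNPC, while the deposited list is named for another form of CLIP, HITS-CLIP. That was not settled here.

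Positions listed more than once (1281 surplus HNRNPC and 6271 PABPC4 entries) were counted once. Peak centres were assigned on their strand with GENCODE 44 in the order 3′ UTR, coding sequence, 5′ UTR, non-coding exon, intron, from all transcripts. Signals were sought in the last 40 nt of a peak. Likeness to 7SL RNA (RN7SL1) used blastn 2.17.0 on the peak with 100 nt on either side (E-value limit 1e-05), and BC200 RNA was added after the sequences were seen. Intervals were Wilson for shares and exact Poisson for heights (scipy 1.17.1). The assignment was tested on simulated data. No test was made, since each protein has 1 list. Named were all 10 genes and, of 46 other pathway genes, those with an HNRNPC 3′ UTR peak and the 3 whose tallest PABPC4 3′ UTR peaks ranked first. NFE2L2 was named after its values were seen. The genes and lists were chosen with earlier results of these data known. A further marker gene and 1 peak sequence are not reported here.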

Additional observations from a re-analysis of the deposited data

How the results depend on the processing

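Of 61 recalculations of 11 counts and shares, 55 stayed within 1.5 times the count or inside its counting interval and 6 moved. Keeping only peaks at or above the median height of their list left 5 of the 9 HNRNPC peaks and 26 of the 49 PABPC4 peaks, fewer by construction, and raised the share of the summed 3′ UTR height in each gene's tallest peak from 76.8% to 80.1%. Leaving out PABPC4 peaks before an A-rich stretch lowered that share to 67.6%, but this removed the 1964-tag TXN peak, and with that peak kept the share was 79.4%. Searching for a poly(A) signal within 100 nt on either side of the peak raised the share of 3′ UTR peaks with one from 60.7% to 78.6%, by construction a wider search. A limit of 0.001 on the authors' p-value and counting every entry, each run on 9 of the 11, moved none of those 9. Added after the data were seen were the 40 nt before the peak's end whatever its width, BC200 RNA and keeping that TXN peak. No paired analysis was possible because neither list separates the replicates, and for the same reason no replicate could be left out. HNRNPC peaks of 8 to 17 tags have wide intervals, and a gene without a listed peak may still be bound.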
